A study of Homo sapiens with 4 samples.

Results

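The HOX genes encode homeodomain transcription factors and lie in 4 clusters, HOXA on chromosome 7, HOXB on chromosome 17, HOXC on chromosome 12 and HOXD on chromosome 2. They were taken here as the protein-coding genes whose symbol is HOX, a cluster letter and a number. The table of genes listed 30 of them among 51740 rows, and 29 were tested for a difference between the fractions among 23333 genes tested. HOXB1 was listed with a mean of 0, and a count of 0 allows up to 3 counts in a library. The GENCODE 44 annotation holds 39 HOX genes. The other 9, namely HOXA4, HOXA5, HOXA6, HOXB4, HOXB8, HOXB9, HOXC8, HOXC9 and HOXD4, were not analysed here. Each of these 9 lies wholly inside the same-strand span of another HOX gene in that annotation. So do 2 genes that were tested, HOXB5 inside HOXB3 and HOXC5 inside HOXC4.

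RNA was sequenced from wildtype HEK293T cells, a transformed line derived from human embryonic kidney, that had been crosslinked with formaldehyde and then separated into nuclei and cytoplasm. There were 2 nuclear and 2 cytoplasmic libraries from independent biological replicates, and both fractions came from crosslinked cells of this single line. Every library was made from 400 ng of ribosomal RNA-depleted RNA, and a value is therefore a share of the RNA of its fraction. Fewer RNA molecules in a fraction and a larger amount of other RNA in it cannot be told apart.

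HOX genes specify position along the head-to-tail axis and in the limbs and urogenital tract. Their order on the chromosome follows their order of use along the body, and genes of different clusters with the same number are paralogs that descend from one ancestral gene. Low numbers are used toward the head, and high numbers in the lumbar, sacral and limb regions. Cell lines tend to keep the HOX code of the tissue they came from.

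The sum of counts recovered for genes with a mean of at most 2000 was 9883480 in the deeper nuclear library, 8517458 in the shallower nuclear library, 6370553 in the deeper cytoplasmic library and 5798055 in the shallower cytoplasmic library. The table carried no replicate number, so libraries of a fraction are named by their depth. A normalized count is a count divided by the size factor of its library. Of transcription factors of the embryonic kidney, EYA1, LHX1, WT1 and PAX2 had means of 63.1 to 811 normalized counts and PAX8 had 0.210. The summed means of marker genes of leukocytes, hepatocytes, fibroblasts and endothelium were 2.76 to 14.0. MALAT1, a nuclear RNA, had a log2 fold change of cytoplasm over nucleus of -3.47 ± 0.13 (SE), and NEAT1, the RNA scaffold of nuclear paraspeckles, had -3.09 ± 0.13.

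Genes of all 4 clusters were detected in both fractions. Of the 29 genes tested, 15 were higher in the cytoplasm and 4 in the nucleus at a deposited DESeq2 adjusted p-value of at most 0.01, and 10 did not pass. Over all genes tested, 25.9% were higher in the cytoplasm and 26.5% in the nucleus. Over the 15336 protein-coding genes tested these shares were 35.6% and 28.4%. The median log2 fold change was 1.07 over the HOX genes, 0.11 over the protein-coding genes and -0.12 over all genes tested. With equal library totals in both fractions, every log2 fold change was lower by 0.66, the HOX median was 0.41, and 10 HOX genes were higher in the cytoplasm and 7 in the nucleus. All 4 libraries entered these tests. On the recovered counts limma also called 15 and 4 HOX genes, where it called 25.0% of 20511 genes higher in the cytoplasm and 30.0% in the nucleus. Without either nuclear library limma called 0 HOX genes and 0 of these 20511 genes.

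The 29 genes held 0.0324% of the normalized counts of the nuclear fraction and 0.0271% of those of the cytoplasmic fraction. Both cytoplasmic libraries lay above both nuclear libraries for 18 of them, below for 7, and the fractions overlapped for HOXB6, HOXC5, HOXC12 and HOXD10. Over the 20511 genes with recovered counts, 38.8% had both cytoplasmic libraries above and 46.1% had both below.

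**Figure D1:**
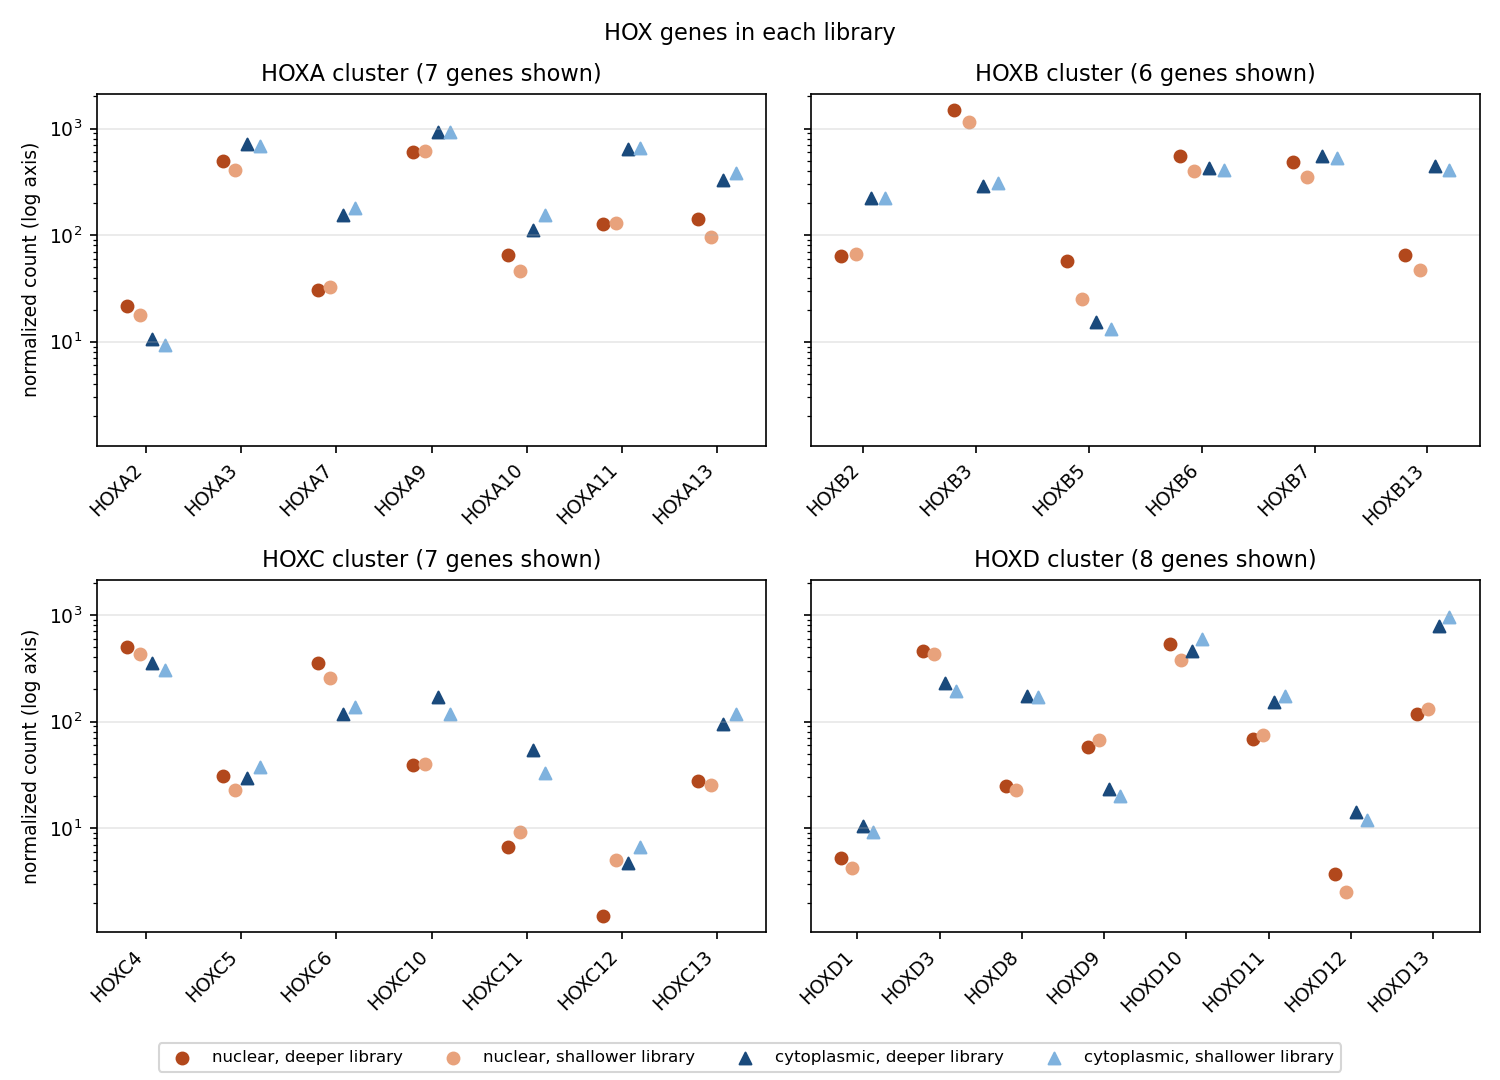
Normalized count (log axis) of 28 of the 29 tested HOX genes in each of the 4 libraries, with a panel for each cluster and genes in order of their number. Circles are nuclear and triangles cytoplasmic libraries, and the triangles lie above the circles for 17 of the 28 genes. Over all 29 genes 15 were called higher in the cytoplasm, and 10 with equal library totals.

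In the HOXA cluster 7 of the 8 tested genes were called higher in the cytoplasm and 0 in the nucleus, and with equal library totals HOXA3, HOXA9 and HOXA10 were no longer called. HOXA9, which acts in blood progenitors and in leukaemia, had the highest mean of the cluster, with 602 and 612 normalized counts in the deeper and shallower nuclear libraries and 925 and 924 in the cytoplasmic ones. The libraries of a fraction lay close together and the fractions did not overlap, with a log2 fold change of 0.61 ± 0.14 (SE; deposited DESeq2 adjusted p = 6.35e-05). HOXA3, needed for the thymus and parathyroid, had 497 and 404 nuclear and 721 and 688 cytoplasmic normalized counts. Its log2 fold change was 0.64 ± 0.17 (deposited DESeq2 adjusted p = 0.000319), and with equal library totals HOXA9 and HOXA3 stood at -0.0555 and -0.0186. Without the deeper cytoplasmic library the limma adjusted p-value of HOXA3 was 0.0270, and without the shallower one 0.0196.

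HOXA11, which patterns the forearm, the kidney and the uterus, had 128 and 131 nuclear and 645 and 651 cytoplasmic normalized counts. All cytoplasmic values of HOXA11 were far above the nuclear ones, a 5.01-fold difference (log2 fold change 2.32 ± 0.19, deposited DESeq2 adjusted p = 5.9e-34). HOXA7, HOXA10 and HOXA13 were also higher in the cytoplasm, with 30.6 to 143 normalized counts in the nuclear libraries, 111 to 383 in the cytoplasmic ones and log2 fold changes of 1.26 to 2.39. HOXA2, a hindbrain gene, was the exception, with 21.6 and 17.7 nuclear against 10.6 and 9.28 cytoplasmic normalized counts. Its log2 fold change of -0.99 ± 0.81 did not pass the test (deposited DESeq2 adjusted p = 0.295).

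The HOXB cluster held HOXB3, with the lowest log2 fold change of the tested HOX genes, and HOXB13, whose fold change differed from those of HOXD8 and HOXD13 by less than their standard errors. HOXB3, which patterns the hindbrain, had the highest mean of any HOX gene, with 1508 and 1146 normalized counts in the nuclear libraries and 286 and 307 in the cytoplasmic ones. The lowest nuclear value was several times the highest cytoplasmic one, and the fold of nucleus over cytoplasm was 4.48 (log2 fold change -2.16 ± 0.17, deposited DESeq2 adjusted p = 1.87e-34). HOXB13, a regulator of the prostate, had 64.9 and 47.1 nuclear and 444 and 409 cytoplasmic normalized counts. That is 7.60-fold higher in the cytoplasm (log2 fold change 2.93 ± 0.25, deposited DESeq2 adjusted p = 1.9e-31).

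HOXB7 and HOXB6 did not pass on the deposited scale. HOXB7 had 490 and 354 nuclear and 553 and 525 cytoplasmic normalized counts, a log2 fold change of 0.35 ± 0.19 (deposited DESeq2 adjusted p = 0.104) that turned to -0.31 with equal library totals. HOXB6 had 548 and 401 nuclear and 422 and 412 cytoplasmic normalized counts, and both cytoplasmic values lay between the nuclear ones. Its log2 fold change was -0.19 ± 0.20 (deposited DESeq2 adjusted p = 0.420), and with equal library totals it was called higher in the nucleus at -0.85 (adjusted p = 3.18e-05 from the shifted DESeq2 values). HOXB2, a hindbrain gene, was higher in the cytoplasm with a log2 fold change of 1.76 ± 0.28. HOXB5 had 56.7 and 25.2 nuclear and 15.2 and 13.2 cytoplasmic normalized counts, so its nuclear libraries differed most among HOX genes with more than 20 counts in each nuclear library, and it did not pass (deposited DESeq2 adjusted p = 0.0345). HOXB5 was called higher in the nucleus with equal library totals, at -2.19.

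The HOXC cluster held the smallest share of HOX counts. HOXC4 led it with 500 and 431 nuclear and 354 and 302 cytoplasmic normalized counts. All nuclear values were the higher ones, but the log2 fold change of -0.50 ± 0.19 missed the threshold (deposited DESeq2 adjusted p = 0.0150). HOXC4 was called higher in the nucleus with equal library totals (-1.17), with centring on protein-coding genes (-0.62) and by limma with a pseudocount of 2 (-0.50). HOXC6, a gene of the thoracic region, had 354 and 254 nuclear and 117 and 138 cytoplasmic normalized counts. It was 2.39-fold higher in the nucleus (log2 fold change -1.26 ± 0.26, deposited DESeq2 adjusted p = 2.58e-06), with a limma adjusted p-value of 0.0135 without the deeper cytoplasmic library. HOXC10, which specifies lumbar motor neurons, went the other way with 38.8 and 39.5 nuclear and 169 and 117 cytoplasmic normalized counts, a log2 fold change of 1.87 ± 0.36 (deposited DESeq2 adjusted p = 4.47e-07). HOXC13, a regulator of hair keratin genes, and HOXC11 were also higher in the cytoplasm, with log2 fold changes of 2.01 and 2.46, and HOXC11 lost its call with equal library totals (1.79, adjusted p = 0.0121 from the shifted DESeq2 values). HOXC5 and HOXC12 did not pass, and HOXC12 had the fewest reads of all tested members in the nucleus together with HOXD12, 8 counts over both nuclear libraries.

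The HOXD cluster combined strongly cytoplasmic and nuclear genes. HOXD13, which forms the digits, had 118 and 132 nuclear and 786 and 955 cytoplasmic normalized counts. It was 6.97-fold higher in the cytoplasm (log2 fold change 2.80 ± 0.19, deposited DESeq2 adjusted p = 1.34e-48). HOXD8 had 24.6 and 22.7 nuclear and 174 and 170 cytoplasmic normalized counts, 7.25-fold higher in the cytoplasm (log2 fold change 2.86 ± 0.35, deposited DESeq2 adjusted p = 2.24e-15). For both genes the 2 libraries of a fraction lay much closer to each other than to the other fraction.

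HOXD3 had 457 and 432 nuclear and 231 and 192 cytoplasmic normalized counts and was 2.10-fold higher in the nucleus (log2 fold change -1.07 ± 0.20, deposited DESeq2 adjusted p = 3.28e-07). HOXD10, a gene of lumbar motor neurons, had 531 and 374 nuclear and 463 and 594 cytoplasmic normalized counts. Its fractions overlapped, and its log2 fold change of 0.22 ± 0.21 (deposited DESeq2 adjusted p = 0.363) turned to -0.44 with equal library totals. HOXD9, a direct neighbour of HOXD8 and HOXD10, was higher in the nucleus with 58.2 and 66.4 nuclear and 23.4 and 19.9 cytoplasmic normalized counts (log2 fold change -1.52 ± 0.50, deposited DESeq2 adjusted p = 0.00477). HOXD11, which patterns the forearm, was higher in the cytoplasm with a log2 fold change of 1.19 ± 0.30, which was 0.53 and no longer called with equal library totals. HOXD1 and HOXD12 had means of 7.31 and 8.06 normalized counts and did not pass.

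Set side by side, the clusters had overlapping ranges. The median log2 fold change was 1.41 for HOXA (from -0.99), 0.0824 for HOXB (-2.16 to 2.93), 0.80 for HOXC (-1.26 to 2.46) and 1.13 for HOXD (-1.52 to 2.86). With equal library totals the medians were 0.75, -0.58, 0.14 and 0.47, so that the HOXB median changed sign. Called genes higher in the cytoplasm numbered 7 of 8 in HOXA, 2 of 6 in HOXB, 3 of 7 in HOXC and 3 of 8 in HOXD, and those higher in the nucleus 0, 1, 1 and 2. Equal library totals changed these counts to 4, 2, 2 and 2 in the cytoplasm and 0, 3, 2 and 2 in the nucleus. Of protein-coding genes, 35.6% and 28.4% were called, and 22.4% and 42.6% with equal library totals. These are descriptions of few genes, and the difference between clusters was not tested.

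The clusters also contributed unlike shares to the HOX RNA of each fraction. HOXB held 40.6% of the nuclear and 24.6% of the cytoplasmic normalized counts on tested HOX genes, while HOXA held 24.4% and 39.7%. HOXD held 20.2% and 25.6%, and HOXC 14.8% and 10.1%. HOXB3 alone made up 22.6% of the nuclear and 3.81% of the cytoplasmic HOX counts, and the remaining HOXB genes 18.0% and 20.8%. In the cytoplasm HOXA9 and HOXD13 came first with 11.9% and 11.2%, against 10.3% and 2.12% in the nucleus. Reads from introns were counted, so a long gene can hold more counts at the same number of molecules.

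**Figure D2:**
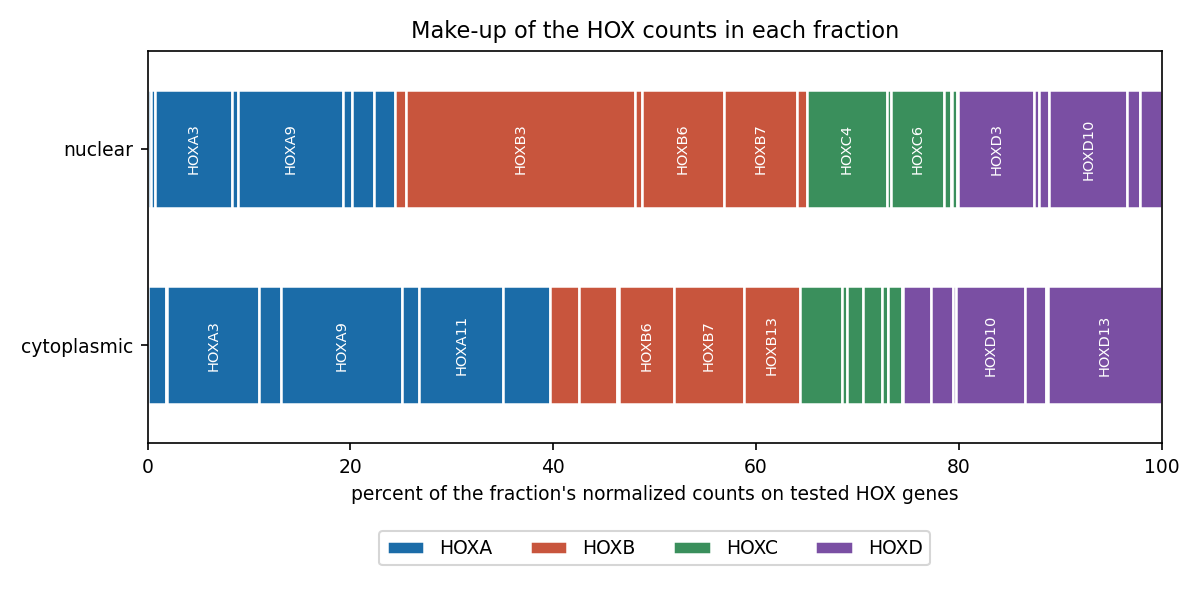
Percent of the normalized counts on the 29 tested HOX genes that each gene held, with a bar for each fraction, coloured by cluster and in order of gene number within it. HOXB3 filled 22.6% of the nuclear bar and 3.81% of the cytoplasmic bar, and HOXD13 2.12% and 11.2%.

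Per kb of exonic length, the highest cytoplasmic levels were those of HOXD13 (360 normalized counts per kb), HOXB7 (354), HOXA9 (305) and HOXA11 (243). The highest nuclear levels per kb were those of HOXB7 (278), HOXA9 (200), HOXB6 (182), HOXD10 (182) and HOXB3 (179). HOXB3 thus led the nuclear fraction by its total count but not per kb of exon. The lowest cytoplasmic level was that of HOXC12, at 1.74 per kb. The counted stretch differed from the exonic length, because introns were included and stretches shared by several genes were removed before counting.

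The position of a gene in its cluster was set beside its fold change. All 12 tested genes of groups 10 to 13, the lumbar to digit end, had log2 fold changes above 0 (0.22 to 2.93, median 1.94). Of them, 9 were called higher in the cytoplasm and 0 in the nucleus, beside 35.6% and 28.4% of protein-coding genes. Equal library totals put HOXD10 below 0 and left 6 of the 12 called, where 22.4% of protein-coding genes were called higher in the cytoplasm. These 12 genes were short, with a median span of 4.87 kb, and all but HOXD10 (11.1 kb) span under 10 kb. Of the 1961 other protein-coding genes under 10 kb in the span comparison below, 85.6% were called higher in the cytoplasm on the deposited scale. Their median log2 fold change was 1.97. Whether position in the cluster matters beyond span was not tested. Of the 7 genes of groups 1 to 3, 3 were called higher in the cytoplasm and 2 in the nucleus, with a median of 0.64. Equal library totals gave 2 in each direction and turned the median to -0.0186. For groups 4 to 8 the median was 0.0628, which turned to -0.60, with 2 genes called higher in the cytoplasm, 1 in the nucleus (4 with equal library totals) and 5 not passing. The 4 genes of group 13 were all called higher in the cytoplasm (1.57 to 2.93), as were the 3 of group 11 (1.19 to 2.46). Under equal library totals all 4 of group 13 but 1 of the 3 of group 11 were called. Spearman's rho between paralog number and log2 fold change was 0.48 across the 29 genes, which share the same 4 libraries.

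**Figure D3:**
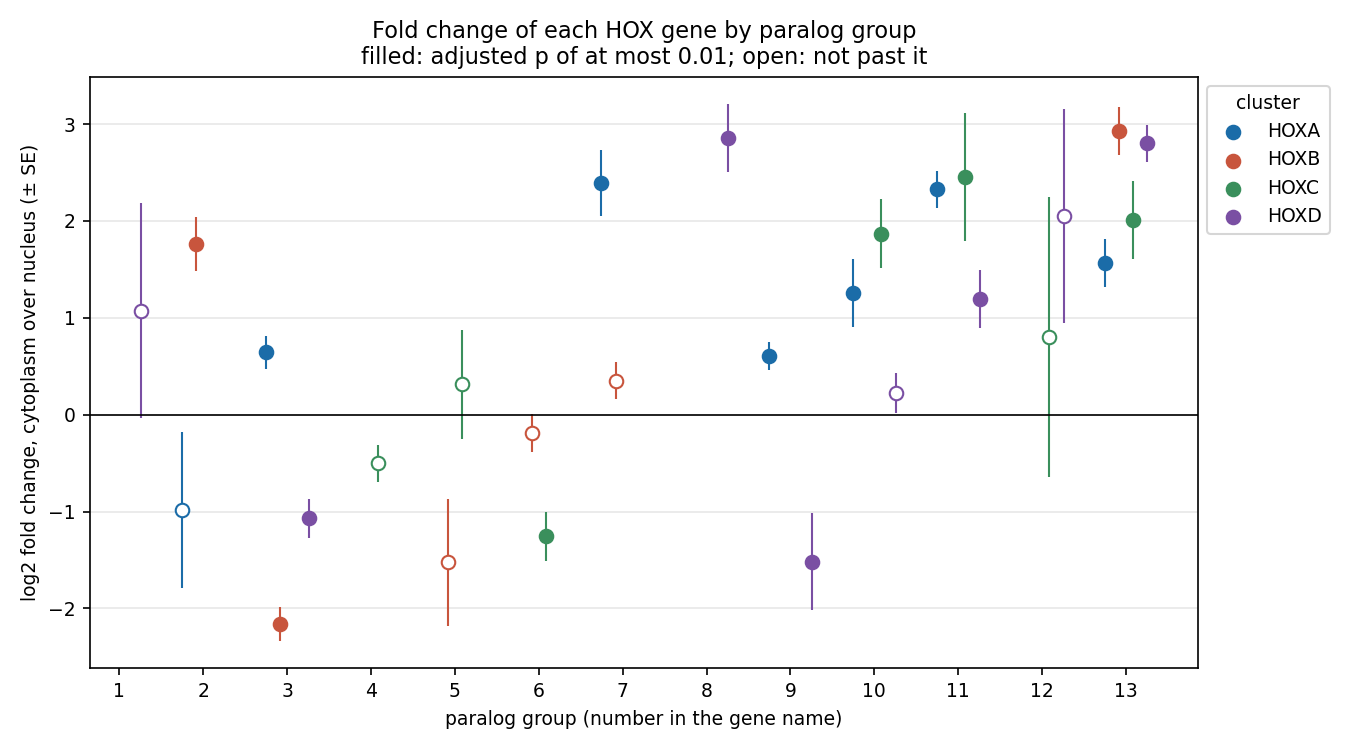
Log2 fold change of cytoplasm over nucleus with its standard error for 28 of the 29 tested HOX genes, by the number in its name and coloured by cluster. Filled points passed an adjusted p-value of 0.01, and all 12 points of groups 10 to 13 lie above 0 (HOXD10 is below 0 with equal library totals).

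Paralogs of group 3 parted between the fractions. HOXA3 was called higher in the cytoplasm on the deposited scale (-0.0186 with equal library totals), and HOXB3 and HOXD3 in the nucleus. A single spliced transcript per gene, the Ensembl canonical one, was compared between HOX genes. The longest stretch identical in any pair was 62 bases, in HOXB3 and HOXD3, against reads of 100 nt taken from both ends of a fragment. Other transcripts and introns, which were also counted, were not compared, and some HOX genes overlap each other on the same strand.

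The 4 paralogs of group 13 were all higher in the cytoplasm. Their homeoboxes, the 180 bases that encode the DNA-binding homeodomain, are shown to let these genes be compared at the sequence that defines the family. Their homeoboxes lie at chr7:27198222-27198401 on the minus strand for HOXA13, chr17:48726820-48726999 on the minus strand for HOXB13, chr12:53945041-53945220 on the plus strand for HOXC13 and chr2:176094524-176094703 on the plus strand for HOXD13 in hg38, each within a single coding exon. Capitals mark the 79 positions at which the 4 genes do not all have the same base.
HOXA13: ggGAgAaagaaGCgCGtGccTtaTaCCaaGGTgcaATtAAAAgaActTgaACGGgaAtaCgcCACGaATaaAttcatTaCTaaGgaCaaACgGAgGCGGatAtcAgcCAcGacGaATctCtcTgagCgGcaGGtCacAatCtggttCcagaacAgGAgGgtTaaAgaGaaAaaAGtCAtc
HOXB13: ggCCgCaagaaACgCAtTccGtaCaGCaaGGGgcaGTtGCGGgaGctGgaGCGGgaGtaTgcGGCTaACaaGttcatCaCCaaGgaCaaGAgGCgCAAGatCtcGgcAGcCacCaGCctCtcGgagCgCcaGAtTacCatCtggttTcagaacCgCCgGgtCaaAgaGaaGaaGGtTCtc
HOXC13: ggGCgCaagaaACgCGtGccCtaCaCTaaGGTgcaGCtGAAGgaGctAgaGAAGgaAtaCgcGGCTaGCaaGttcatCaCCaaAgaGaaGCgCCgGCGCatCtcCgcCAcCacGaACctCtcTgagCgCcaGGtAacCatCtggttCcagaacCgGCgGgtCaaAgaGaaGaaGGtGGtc
HOXD13: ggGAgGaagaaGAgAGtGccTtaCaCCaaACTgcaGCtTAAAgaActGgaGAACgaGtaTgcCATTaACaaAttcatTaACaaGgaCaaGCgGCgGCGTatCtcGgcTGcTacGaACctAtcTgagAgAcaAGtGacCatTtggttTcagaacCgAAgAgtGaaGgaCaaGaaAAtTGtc
Pairs of these genes had 125 to 144 identical bases of 180. The log2 fold changes were 1.57 for HOXA13, 2.93 for HOXB13, 2.01 for HOXC13 and 2.80 for HOXD13.

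The tested HOX genes differ much in their annotated span, from 2.22 kb for HOXD9 to 56.0 kb for HOXB3, and the nuclear members with high counts were long. Of the 6 tested genes that span 20 kb or more, HOXB3, HOXC6 and HOXD3 were called higher in the nucleus, HOXA3 in the cytoplasm, and HOXC4 and HOXB7 did not pass. Of other 20 to 60 kb protein-coding genes with a mean over 50, 46.0% were called higher in the cytoplasm and 22.6% in the nucleus. Under equal library totals 4 of the 6 were called higher in the nucleus and 0 in the cytoplasm, beside 42.6% and 22.4% of protein-coding genes of any span. The median log2 fold change of the 6 HOX genes was -0.79. That of the 3914 other protein-coding genes of 20 to 60 kb with a mean over 50 normalized counts was 0.36, with quartiles of -0.40 and 1.01. Under 10 kb, the median was 2.01 for the 13 HOX genes above that mean and 1.97 for 1961 other protein-coding genes. Over the 21 HOX genes with a mean over 50, Spearman's rho between span and log2 fold change was -0.91, and it was -0.71 over 12111 other protein-coding genes. Over all 29 tested HOX genes it was -0.29. HOXD9, HOXB5 and HOXA2, each under 3 kb with a mean under 50, lay apart from the long nuclear genes in span, with log2 fold changes of -1.52, -1.52 and -0.99. HOXB5 lies wholly inside the same-strand span of HOXB3, and how reads of this pair were told apart was not analysed.

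**Figure D4:**
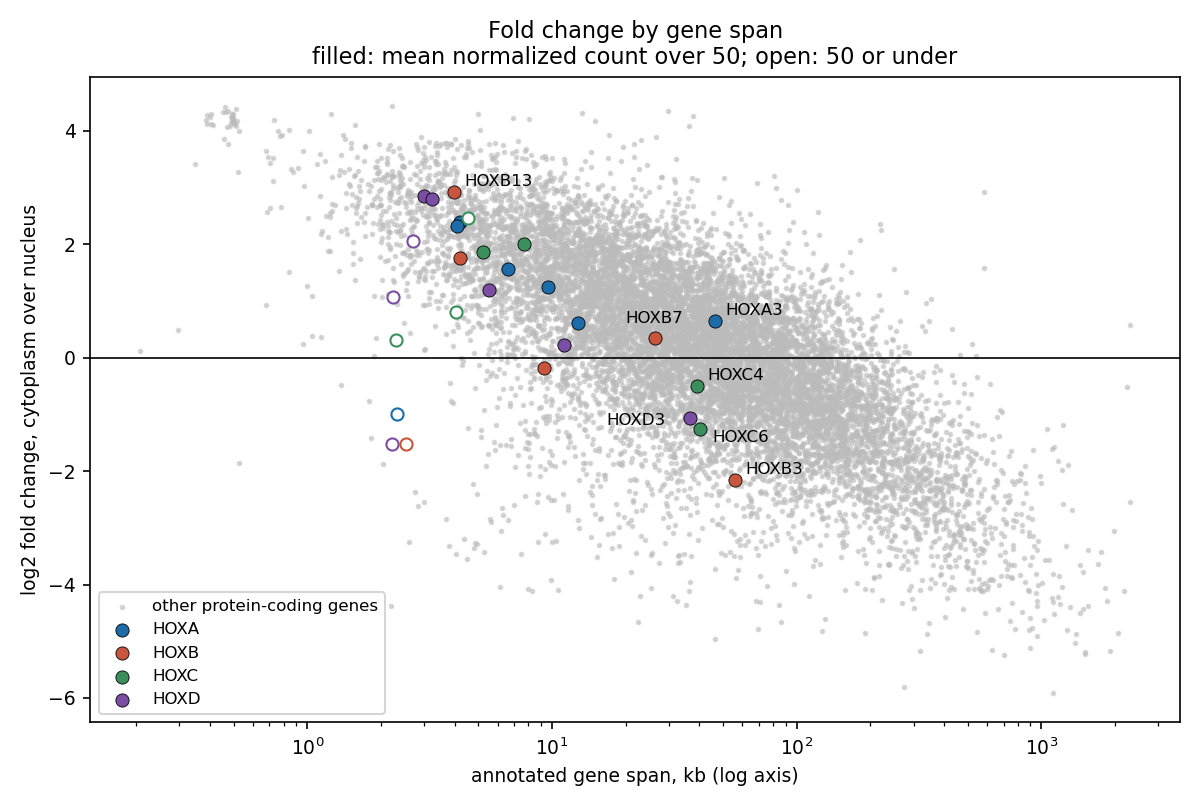
Log2 fold change of cytoplasm over nucleus against the annotated gene span in kb (log axis) for 28 of the 29 tested HOX genes, coloured by cluster, and for 12111 other protein-coding genes with a mean over 50 normalized counts, in grey. Filled HOX points have a mean over 50 and tend to fall as the span grows, with HOXB13 highest at 2.93 and HOXB3 lowest at -2.16. The open points of low-count genes all lie under 10 kb, from 2.46 for HOXC11 to -1.52 for HOXB5.

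HOXA3, of 46.4 kb, shared 96.6% of its span with other annotated genes on either strand, and HOXB3 shared 100%. HOXC4, HOXC6 and HOXD3 shared 41.4%, 68.0% and 31.0%. With genes on the same strand, HOXB5 and HOXC5 each shared 100% of their span and HOXB6 shared 99.1%. Over the 29 tested genes, which share the same 4 libraries, Spearman's rho between log2 fold change and the percent of the span shared with another gene was -0.66 for genes on the same strand and -0.46 for genes on either strand. Which stretches were left to count in each gene was not analysed here.

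The clusters also give rise to non-coding RNAs, most of them antisense to the coding genes, among them HOTAIR, HOTTIP and HOTAIRM1, known as regulators of HOX transcription. Of the 16 that were tested from a list of 23, 3 were higher in the cytoplasm, 1 was higher in the nucleus and 12 did not pass, with a median log2 fold change of 0.80, against 25.9% and 26.5% of all genes tested. Equal library totals gave 2 in each direction, against 16.2% and 38.3% of all genes tested. HOXA11-AS (log2 fold change 2.08 ± 0.31), HOXD-AS2 (1.85 ± 0.37) and HOXA10-AS (1.59 ± 0.43) were the cytoplasmic ones. HOXB-AS1, which overlaps HOXB2 and HOXB3 on the other strand, was the nuclear one (-1.48 ± 0.49, deposited DESeq2 adjusted p = 0.00492). HOTAIR had 28.0 nuclear and 12.4 cytoplasmic normalized counts (-1.18 ± 0.71) and did not pass, nor did HOTAIRM1 (-0.34 ± 0.24) and HOTTIP (0.58 ± 0.60). HOXA11-AS overlaps HOXA11 by 726 bases on the opposite strand, and both were called higher in the cytoplasm. HOXD-AS2 covers the whole span of HOXD8 (3002 bases) and of HOXD9 (2219 bases) on the opposite strand. HOXD8 was called higher in the cytoplasm and HOXD9 in the nucleus. The library kit kept the strand, but whether counting used it is not given in the sources used here, so reads of overlapping sense and antisense genes may not be separated.

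Genes tied to HOX function were examined from lists, beside 35.6% of protein-coding genes higher in the cytoplasm and 28.4% higher in the nucleus. With equal library totals these shares were 22.4% and 42.6%. Of the 9 TALE cofactors, the homeodomain partners with which HOX proteins bind DNA, 7 were higher in the nucleus and 2, PBX2 (1.61 ± 0.17) and MEIS3 (0.73 ± 0.17), in the cytoplasm, with a median log2 fold change of -2.10. MEIS3 was no longer called with equal library totals. PBX4 (-3.24 ± 0.26) and PBX3 (-3.08 ± 0.12) were the most nuclear of them. Of 24 Polycomb and Trithorax regulators, which keep HOX genes silent or active, 12 were higher in the cytoplasm, 10 in the nucleus and 2 did not pass, and with equal library totals 8 were higher in the cytoplasm and 12 in the nucleus. Within Polycomb, EZH2, the H3K27 methyltransferase, and its partners SUZ12, EED, JARID2 and RBBP4 had log2 fold changes of -1.78, -0.84, -1.07, -2.23 and 0.69. Of the CBX genes, which encode readers of the mark, CBX2 and CBX8 had 1.84 and 1.46 and CBX7 had -0.74. Of the ParaHox genes, CDX2 was higher in the cytoplasm (2.05 ± 0.23) and PDX1 did not pass. SKAP2 beside HOXA and MTX2 beside HOXD were higher in the nucleus (-1.83 ± 0.14 and -1.65 ± 0.13).

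The 2 libraries of a fraction differed somewhat more in HOX genes than in protein-coding genes at large. In the nucleus, the median absolute log2 ratio of the deeper to the shallower library was 0.22 over the 21 HOX genes with a mean over 50. It was 0.12 over 9380 protein-coding genes. The deeper nuclear library was the higher one for 14 of the 21 HOX genes and 51.7% of the protein-coding genes. In the cytoplasm the medians were 0.22 and 0.14. There the deeper library was the higher one for 10 of the 21 HOX genes and 42.3% of the protein-coding genes. The protein-coding genes include many with higher counts, and the part of count depth in this difference was not tested.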

How the data were processed

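RNA of 2 nuclear and 2 cytoplasmic fractions was sequenced by the authors, who aligned reads to hg38 with STAR, counted exons and introns with featureCounts 2.0.2 on an extended GENCODE 34 annotation from which stretches shared by several genes were removed, and compared the fractions with DESeq2. The deposited table holds 1 row per gene. Its mean normalized count is a signal that the authors averaged over 4 libraries. The authors' log2 fold change (cytoplasm over nucleus) and standard error are on the log2 scale. The authors' statistic is a Wald score, and each deposited p-value was adjusted by the Benjamini-Hochberg method. The rest of the table is gene annotation. Because no counts were tabulated, these deposited columns served as the main test, at the study's threshold of 0.01, in place of a count model.

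Counts of single libraries were recovered for tested genes with a mean of at most 2000. A mean given to 10 digits is a sum of whole counts divided by 4 size factors (1.34, 1.19, 0.853 and 0.755), and the set of counts that gives the deposited fold change was kept. This worked for 20511 of 20590 genes and all 29 HOX genes, whose fold changes were met within 4.89e-06, the next set being at least 0.00191 off. On data simulated with the recovery's own fold change formula and a fixed dispersion, 291 of 291 genes with counts in both fractions came out right. The authors' DESeq2 fit itself was not simulated. A fraction was assigned to each size factor by the sign of the fold change. limma 3.58.1 in R 4.3.3 was run on log2(normalized count + 0.5), and its fold changes are on that scale. Fraction means come from the mean and the fold change. Counting intervals and floors cover counting error only.

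HOX members and all gene lists were chosen with earlier results of these data known. Values were printed in full for the 3 members of each cluster with the highest means and for the 3 with the largest change in each direction among called members with a mean over 50. Values of other members were added after they were seen. Spans and exons are from GENCODE 44 on hg38, and sequences from the same genome; 99.1% of tested genes had a match. p-values rest on 2 libraries per fraction. Some members and sequences are not reported here.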

Additional observations from a re-analysis of the deposited data

How the results depend on the processing

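No paired analysis was possible because the table carries no replicate numbers. Against 15 HOX genes higher in the cytoplasm and 4 in the nucleus, the Bonferroni adjustment gave 9 and 2, and equal library totals gave 10 and 7. Thresholds of 0.05 and of a fold change, centring, limma and a mean over 50 kept both counts within 1.5 times. With equal library totals the median log2 fold change was 0.41 for all HOX genes, 0.75 for HOXA, -0.58 for HOXB, 0.14 for HOXC and 0.47 for HOXD, and HOXA3 (-0.0186) and HOXA9 (-0.0555) changed sign. Centring on protein-coding genes gave -0.0291 for HOXB and 1.02 for HOXD. A mean over 50 gave 1.26 for all, 0.35 for HOXB and 1.19 for HOXD. limma with a pseudocount of 2 gave 0.83 for all and 1.00 for HOXD. Leaving out 1 library at a time, limma called 0 to 13 HOX genes higher in the cytoplasm and 0 to 4 in the nucleus, and the medians ran from 1.01 to 1.11 for all, 1.16 to 1.69 for HOXA, -0.13 to 0.33 for HOXB, 0.53 to 1.61 for HOXC and 1.06 to 1.13 for HOXD. The 0 calls were those without either nuclear library, where no gene passed. Without the deeper cytoplasmic library HOXC11, HOXA3 and HOXC6 lost their calls, and without the shallower one HOXA10 and HOXA3. The cause was not tested. Genes with few counts, such as HOXC12 with 8 nuclear counts, have standard errors too wide for a call.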
